A study of Mus musculus with 12 samples.

Results

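The genes described here are 10 members of the NRF2 pathway and of the antioxidant machinery that it controls, chosen by name: Nfe2l2, Keap1, Hmox1, Nqo1, Gclm, Gclc, Srxn1, Txnrd1, Osgin1 and Gsr. All 10 were found among the 24062 gene rows of the count table, and all 10 passed the filter on low counts, as did 12154 genes in total. RNA was sequenced from mouse embryonic fibroblasts (MEFs) of 2 lines, shRenilla, with a control short hairpin RNA (shRNA) against Renilla luciferase, and shBruce, with the hairpin shBruce#1 against Birc6, the gene that encodes the ubiquitin enzyme BRUCE. Each line was kept in full medium (FM) or deprived of serum and amino acids for 2 h (Starv), and each of the 4 groups had 3 libraries. The groups are called shRenilla FM, shRenilla Starv, shBruce FM and shBruce Starv. The design asks how mRNA levels differ between control and knockdown MEFs in each medium. A hairpin was present in every group, and each hairpin is represented by a single line, so that other differences between the lines and the knockdown cannot be told apart. The labels do not say that the libraries came from separate cultures, and p-values then measure the spread between these libraries, which may be technical.

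NRF2, encoded by Nfe2l2, is the transcription factor that switches on genes for the removal of oxidants and electrophiles. In unstressed cells KEAP1 holds NRF2 and hands it to a CUL3 ubiquitin ligase, so that the protein is degraded as fast as it is made. Reactive compounds modify cysteines of KEAP1, and p62, the product of Sqstm1, can pull KEAP1 away into autophagic cargo, and in both cases NRF2 accumulates. It then pairs with a small MAF protein at antioxidant response elements, sites that BACH1 otherwise occupies as a repressor. Since this control acts on the protein, the mRNA of Nfe2l2 is not a measure of NRF2 activity.

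Total counts per library ranged from 7717265 in shBruce Starv replicate 1 to 18510540 in shRenilla FM replicate 1. Birc6, the target of the hairpin, had normalized counts (counts scaled to a common library size) of 4682, 3273 and 5061 in shRenilla FM, 1207, 1265 and 1390.4 in shBruce FM, 4759, 4712 and 2787 in shRenilla Starv and 1175, 703 and 1226 in shBruce Starv. It was lower in the shBruce libraries without overlap in both media, with a log2 fold change of -1.75 in FM (adjusted p = 0.0627 in edgeR's quasi-likelihood test) and of -1.98 in Starv (adjusted p = 0.0186). Of 12 fibroblast markers, 10 passed the filter. Col1a1, Col1a2, Fn1 and Vim were abundant in every library (the lowest value was 13983 normalized counts, for Col1a2). Col3a1, at 103 to 729, and Dcn, at 6.94 to 50.5, passed at far lower levels, and Thy1 and Fap did not exceed 6.06. Of the markers of other cells, 0 of 7 epithelial, 1 of 5 endothelial, 3 of 5 macrophage and leukocyte and 1 of 3 pluripotent stem cell markers passed, the last being Sox2 at 104 to 638 normalized counts beside at most 2.02 for Pou5f1. The summed pluripotent markers were lower in starved shRenilla MEFs, at 109 to 138 against 363 to 415 normalized counts in FM, and lay at 119.5 to 329.7 against 283 to 641 in shBruce MEFs. The summed fibroblast markers lay between 160945 and 165455 in shRenilla FM, 135378 and 145995 in shRenilla Starv, 173558 and 205221 in shBruce FM and 135324 and 165939 in shBruce Starv. The summed endothelial markers, at 35.8 to 39.2 in shRenilla FM against 6.94 to 23.0 in shBruce FM, and the summed macrophage and leukocyte markers, at 185 to 206 against 221 to 326, also separated the lines in FM. The part of any marker list in the results was not tested. The counts also depended on transcript length to a different degree in each library: for each doubling of length, log2 counts changed by 0.21, 0.20 and 0.03 in shRenilla Starv and by -0.17, -0.23 and 0.04 in shBruce Starv relative to the mean of all libraries. In FM the changes were 0.07, -0.02 and 0.11 in shRenilla and -0.09, -0.10 and -0.06 in shBruce libraries, and the part of this difference in the comparison of the lines was tested only by removing the trend. In bulk RNA, fewer cells of a type and less RNA per cell cannot be told apart.

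Per kb of transcript, the mRNA of Txnrd1, which encodes the cytosolic thioredoxin reductase, was the most abundant of the 10 in 3 groups, with 1699 ± 39.1 (SD, n = 3) normalized counts per kb in shRenilla FM, 1206 ± 28.0 in shRenilla Starv and 1595 ± 88.1 in shBruce FM. In shBruce Starv, Hmox1 had the higher mean, 1079.8 ± 176 against 999 ± 173, but their libraries overlapped. Osgin1, whose product limits growth under oxidative stress, was the least abundant in all 4 groups, with group means from 30.8 to 40.6 normalized counts per kb. In shRenilla FM the order was Txnrd1, Gsr, Nfe2l2, Hmox1, Keap1, Srxn1, Gclc, Gclm, Nqo1 and Osgin1, and the libraries of neighbours did not overlap. In shBruce Starv, in contrast, the libraries of 6 of the 9 pairs of neighbours overlapped. Hmox1 changed place with the medium, from rank 4 in shRenilla FM at 602 ± 48.8 normalized counts per kb to rank 2 in shRenilla Starv at 979.5 ± 131.

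**Figure D1:**
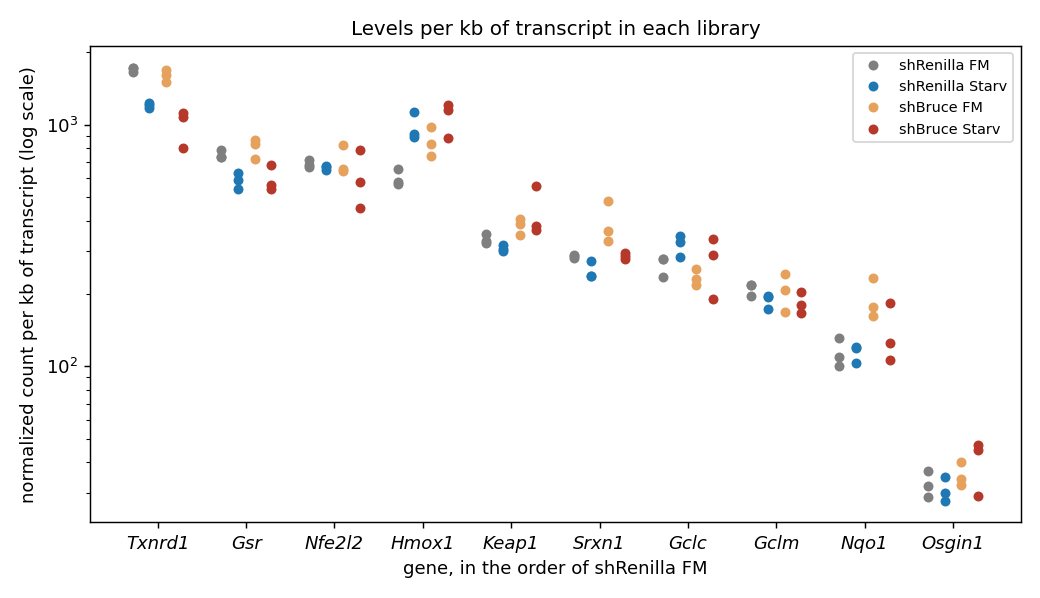
Normalized counts per kb of the longest annotated transcript (log scale) of the 10 genes, in the order of their means in shRenilla FM, with a point for each of the 12 libraries coloured by group. Txnrd1 lies highest in shRenilla FM at 1699 and Osgin1 lowest in every group.

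The 2 genes at the top of the pathway were examined first. Nfe2l2 lies on chr2:75675513-75704641 on the minus strand of GRCm38 (mm10). Its normalized counts were 1766, 1651 and 1692 in shRenilla FM, 1657, 1665 and 1609.8 in shRenilla Starv, 1599, 1628 and 2033 in shBruce FM, and 1120.3, 1435 and 1937 in shBruce Starv. The groups overlapped in every comparison, and shBruce Starv had the widest spread, with a coefficient of variation of 27.5% against 1.82% in shRenilla Starv. The log2 fold change of Starv against FM was -0.05 in shRenilla (95% confidence interval -0.41 to 0.31, adjusted p = 0.864 in edgeR's test) and -0.22 in shBruce MEFs (-0.59 to 0.14, adjusted p = 0.356). Without shBruce Starv replicate 3 the decrease in shBruce MEFs passed the test (-0.45, adjusted p = 0.0234).

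Keap1, the adaptor that presents NRF2 for degradation, lies on chr9:21229730-21239361 on the minus strand. It had normalized counts of 1191, 1271 and 1176 in shRenilla FM, 1086, 1108 and 1152 in shRenilla Starv, 1268, 1407 and 1472 in shBruce FM, and 2008, 1376 and 1329 in shBruce Starv. Its starvation response did not pass in either line, with log2 fold changes of -0.12 in shRenilla (-0.44 to 0.20, adjusted p = 0.611) and 0.18 in shBruce MEFs (-0.14 to 0.50, adjusted p = 0.395). Its difference between the lines is described with that comparison below. The annotation places an antisense gene, Gm16754, over part of Keap1, and since the strand setting of the counting is not given in the sources used here, reads of both could not be told apart.

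**Figure D2:**
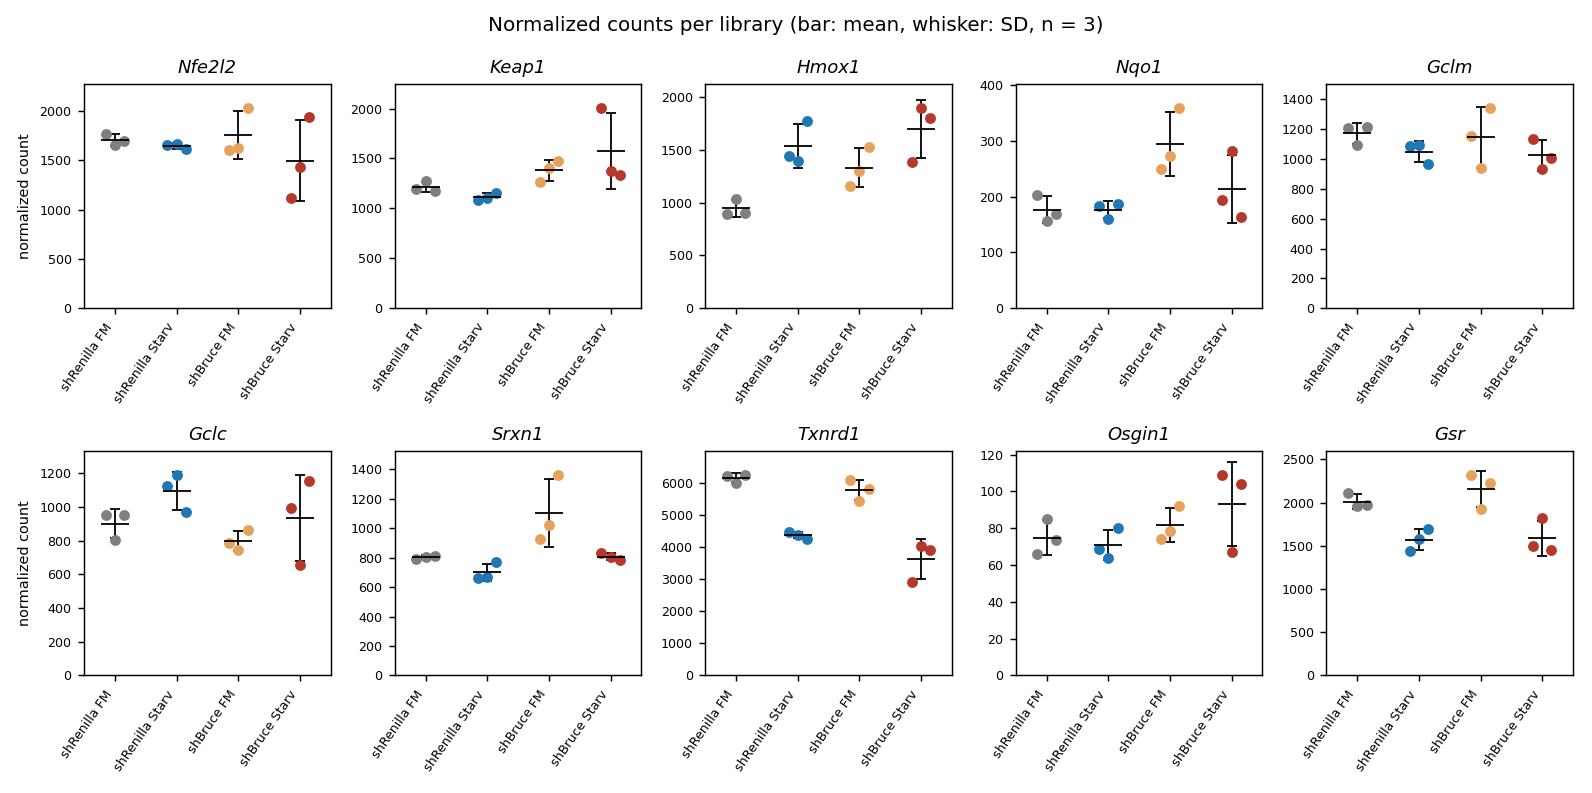
Normalized counts (y axis, from 0) of each of the 10 genes in shRenilla and shBruce MEFs in FM and Starv, with a point for each library, a bar for the mean and whiskers for the SD (n = 3). Hmox1 lies higher in shRenilla Starv (1537 ± 206) than in shRenilla FM (944 ± 76.6), and Txnrd1 lies lower in Starv in both lines.

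The question of what 2 h of starvation did to the effector genes was addressed in each line on its own. In shRenilla MEFs 2 of the 10 genes passed the test, Hmox1 rising and Txnrd1 falling, against 17% of all genes tested (9.69% rising and 7.27% falling). In shBruce MEFs 3 of the 10 passed, Txnrd1, Gsr and Srxn1, all falling, against 23% of all genes (12.4% rising and 10.6% falling). The count of members was thus close to the background in both lines, and the 10 genes did not rise together: in shRenilla 3 of 10 and in shBruce MEFs 4 of 10 log2 fold changes were above 0. The median log2 fold change of the 10 was -0.10 in shRenilla and -0.19 in shBruce MEFs, beside -0.01 and 0.02 over all genes tested. The split of all calls depended on the scaling: 1178 rising and 883 falling in shRenilla MEFs became 1588 and 641 with upper-quartile normalization and 1381 and 1558 with the length and GC trends removed, and 1506 and 1284 in shBruce MEFs became 1991 and 933, and 1687 and 2205.

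Hmox1, haem oxygenase 1, cleaves haem to biliverdin, iron and carbon monoxide and is a target of both NRF2 and BACH1. It lies on chr8:75093621-75100589 on the plus strand. Its normalized counts were 895, 1033 and 906 in shRenilla FM and 1442, 1395 and 1774 in shRenilla Starv, so that every starved library exceeded every fed library. In shBruce MEFs they were 1162, 1300.2 and 1531 in FM and 1381, 1899 and 1803 in Starv, and the groups overlapped through the low Starv replicate 1. The log2 fold change was 0.70 in shRenilla MEFs (standard error 0.15, 95% confidence interval 0.37 to 1.03, adjusted p = 0.00697), a 1.63-fold increase, and it passed in 22 of 22 alternative fits with values from 0.59 to 0.78. In shBruce MEFs the log2 fold change was 0.35 (0.02 to 0.68, adjusted p = 0.116), and without Starv replicate 1 it was 0.46 and passed (adjusted p = 0.0290). The difference between the responses of the lines was -0.35 (-0.82 to 0.11, adjusted p = 0.806), so a weaker rise in shBruce MEFs was not shown.

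Txnrd1 fell in both lines and Srxn1 in shBruce MEFs. Txnrd1 supplies electrons from NADPH to thioredoxin, and Srxn1 encodes sulfiredoxin, which repairs over-oxidized peroxiredoxins. Txnrd1 lies on chr10:82833951-82897712 on the plus strand and had normalized counts of 6224, 5990.2 and 6246 in shRenilla FM and 4459, 4389 and 4259 in shRenilla Starv. In shBruce MEFs they were 6075, 5441 and 5818 in FM and 2897, 4042 and 3912 in Starv. All starved libraries lay below all fed libraries in both lines. The log2 fold change was -0.49 in shRenilla (standard error 0.13, adjusted p = 0.0176) and -0.67 in shBruce MEFs (0.13, adjusted p = 0.00228). The mean decreased by 29.0% in shRenilla and decreased by 37.4% in shBruce MEFs. The decrease in shRenilla MEFs missed the threshold, at adjusted p-values of 0.0582 to 0.0660 and with values of -0.51 to -0.48, when shRenilla FM replicate 1 or 3 or shRenilla Starv replicate 1, 2 or 3 was left out, and that in shBruce MEFs passed in all 12 such fits. The small gene Eid3 lies within Txnrd1 on the same strand and is counted as a gene of its own. Gm38560 and Gm47073 overlap Txnrd1 on the opposite strand, and their reads could not be told apart from those of Txnrd1.

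Srxn1, on chr2:152105516-152111376 on the plus strand, had normalized counts of 791, 807 and 813 in shRenilla FM and 662, 667 and 768 in shRenilla Starv. In shBruce MEFs they were 926, 1023 and 1362 in FM and 829.6, 806 and 786 in Starv. The starved libraries were the lower ones without overlap in both lines, and the spread in shBruce FM came from the high replicate 3. The log2 fold change was -0.20 in shRenilla (standard error 0.14, adjusted p = 0.352) and -0.45 in shBruce MEFs (0.14, adjusted p = 0.0331). The call in shBruce MEFs was lost without shBruce FM replicate 3 (-0.27, adjusted p = 0.125), without shBruce FM replicate 2 or Starv replicate 2 (adjusted p = 0.0508 and 0.0608) and without shRenilla FM replicate 1 or 3 (0.0511 and 0.0518).

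Gsr, glutathione reductase, which turns oxidized glutathione back to the reduced form, lies on chr8:33652523-33698163 on the plus strand. Its normalized counts were 2108, 1963 and 1969 in shRenilla FM and 1443, 1582 and 1694 in shRenilla Starv, and 2321, 1928 and 2232 in shBruce FM and 1499.8, 1822 and 1448 in shBruce Starv. The starved libraries again lay below the fed ones without overlap in each line. The log2 fold change was -0.36 in shRenilla (standard error 0.12, adjusted p = 0.0627) and -0.44 in shBruce MEFs (0.12, adjusted p = 0.0204). The former passed when shBruce Starv replicate 1, 2 or 3 was left out (adjusted p = 0.0378, 0.0381 and 0.0336), and the latter was lost without shBruce FM replicate 1 or 3 (0.0828 and 0.0513).

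Gclc and Gclm encode the catalytic and the modifier subunit of glutamate-cysteine ligase, the rate-limiting enzyme of glutathione synthesis. Gclc, on chr9:77754535-77794485 on the plus strand, had normalized counts of 950.1, 802 and 949 in shRenilla FM and 1123, 1189 and 971 in shRenilla Starv, which did not overlap, and of 784, 745 and 862 in shBruce FM and 991, 652 and 1153 in shBruce Starv, which did. Its log2 fold changes of 0.28 in shRenilla (-0.10 to 0.67, adjusted p = 0.304) and 0.23 in shBruce MEFs (-0.16 to 0.61, adjusted p = 0.387) did not pass, and without shBruce Starv replicate 2 the latter was 0.43 (adjusted p = 0.0424). Gclm, on chr3:122245557-122270732 on the plus strand, ranged from 933 to 1345 normalized counts over the 12 libraries, with overlapping groups and a log2 fold change of -0.16 in both lines (adjusted p = 0.467 and 0.422). Gclm overlaps Gm17494 on the opposite strand and the pseudogene Gm6061 on its own, whose reads could not be told apart from its own either. The partner subunits therefore had values of opposite sign, neither of which passed.

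Nqo1, the quinone reductase most often used as a readout of NRF2, had the same mean in both media in shRenilla MEFs, 177 normalized counts. It lies on chr8:107388225-107403206 on the minus strand, with normalized counts of 204, 157 and 169 in shRenilla FM and 184, 160.1 and 187 in shRenilla Starv, and 251, 273 and 360.0 in shBruce FM and 194, 283 and 164 in shBruce Starv. The log2 fold change was 0.00 in shRenilla (-0.45 to 0.45, adjusted p = 0.997) and -0.46 in shBruce MEFs (-0.91 to -0.01, adjusted p = 0.126). The latter passed without shBruce Starv replicate 2, the highest starved library (-0.73, adjusted p = 0.0196), and with length and GC trends removed (-0.64, adjusted p = 0.0185). Osgin1, on chr8:119434124-119446256 on the plus strand, lay between 64.0 and 109 normalized counts in all libraries, with log2 fold changes of -0.08 (adjusted p = 0.827) and 0.18 (adjusted p = 0.563).

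Counted by whether the libraries of Starv and FM overlapped, 6 of the 10 genes separated in shRenilla MEFs, Hmox1 and Gclc upward and Keap1, Srxn1, Txnrd1 and Gsr downward, against 52.4% of all genes. In shBruce MEFs 3 separated, the called genes Txnrd1, Gsr and Srxn1, against 30.9% of all genes. The exact permutation test on the normalized counts, two-sided, cannot go below p = 0.1 with 3 libraries against 3, and 15 of the 40 tests of single genes between groups reached that value.

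**Figure D3:**
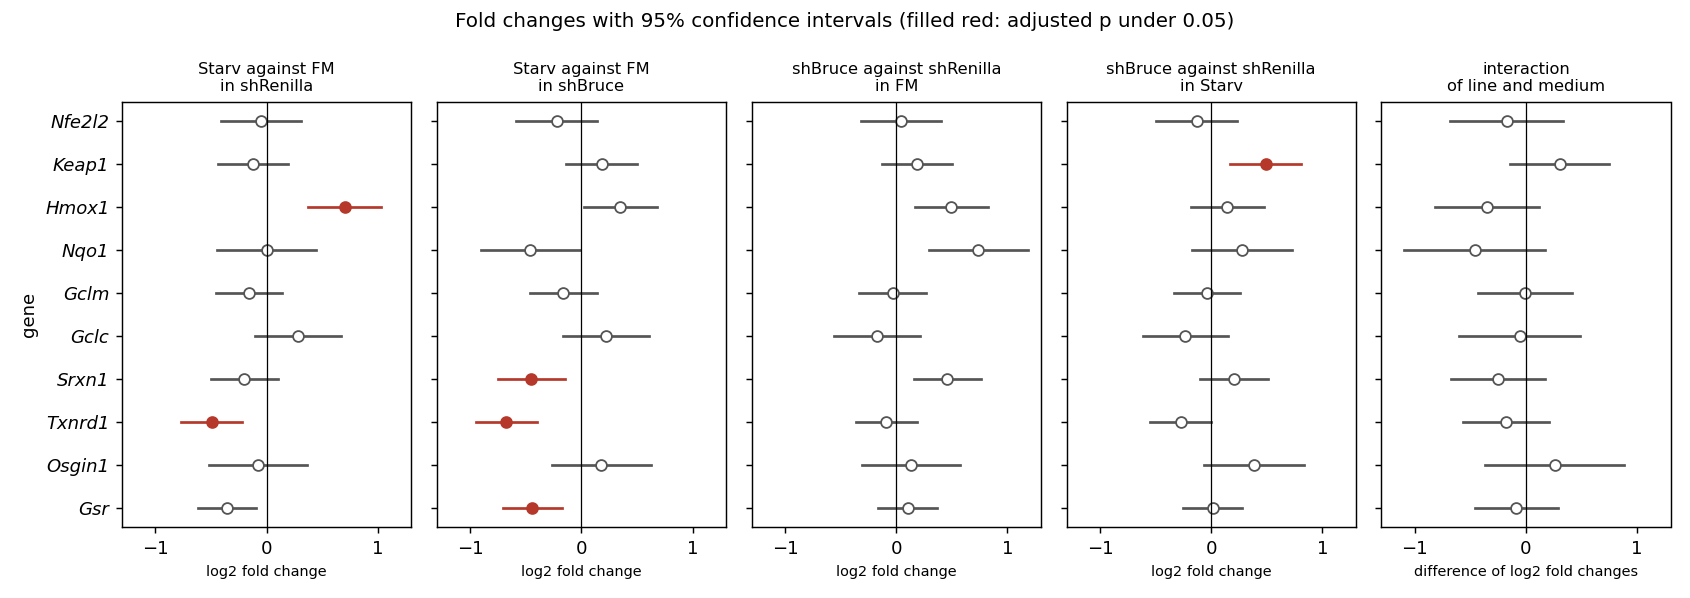
Log2 fold changes (x axis) of the 10 genes with 95% confidence intervals in the 4 comparisons and, in the rightmost panel, the difference between the starvation responses of the lines. Filled red points passed an adjusted p of 0.05: Hmox1 and Txnrd1 in shRenilla, Srxn1, Txnrd1 and Gsr in shBruce MEFs, and Keap1 between the lines in Starv.

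The upstream sequences of these genes were read for the antioxidant response element, since a shared element is a textbook feature of the family. RefSeq promoter windows (250 bases before to 50 after the start, GRCm38.p6) were at hand for 7 of the 10 genes, with 9 windows in all as Txnrd1 has 3, and Hmox1, Gclc and Gsr had no entry. The letters TGACNNNGC and TGAGNNNGC, on either strand, occurred in 5 of the 9 windows (55.6%), against 27.8% of all 32851 windows, and they belong to Nfe2l2, Gclm, Srxn1, Txnrd1 and Osgin1. The AP-1 letters TGANTCA, which overlap the core, occurred in 7.81% of all windows and in those of Srxn1 and Osgin1. Below are the 250 bases before the start of Srxn1 (chr2:152105274-152105523, plus strand) and of the second window of Txnrd1 (chr10:82858956-82859205, plus strand), which fell in shBruce Starv, and of Osgin1 (chr8:119436897-119437146, plus strand), which did not pass. Matches to the core letters are in capitals, including those on the opposite strand.
Srxn1: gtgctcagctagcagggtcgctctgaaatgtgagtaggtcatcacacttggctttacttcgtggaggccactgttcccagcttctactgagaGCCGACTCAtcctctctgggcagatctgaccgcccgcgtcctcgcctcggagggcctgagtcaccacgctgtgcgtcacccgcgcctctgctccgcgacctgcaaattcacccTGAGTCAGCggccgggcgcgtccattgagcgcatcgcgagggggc
Txnrd1: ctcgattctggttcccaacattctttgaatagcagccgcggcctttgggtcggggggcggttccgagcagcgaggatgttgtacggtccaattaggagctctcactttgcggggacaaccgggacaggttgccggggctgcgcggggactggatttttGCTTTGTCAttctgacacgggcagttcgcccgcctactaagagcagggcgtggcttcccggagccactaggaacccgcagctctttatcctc
Osgin1: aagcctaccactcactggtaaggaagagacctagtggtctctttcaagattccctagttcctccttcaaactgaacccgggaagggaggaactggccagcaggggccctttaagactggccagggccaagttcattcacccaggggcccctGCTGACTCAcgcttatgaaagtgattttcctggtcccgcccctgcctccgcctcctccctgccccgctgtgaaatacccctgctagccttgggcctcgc
Srxn1 held 3 matches, of which the third begins at base 29 after the start and is not shown, and the match TGAGTCAGC at -45 overlaps AP-1 letters. In Osgin1 the match GCTGACTCA begins at -99 and also overlaps AP-1 letters, and in Txnrd1 GCTTTGTCA begins at -92. Genes with a match thus include a gene that fell in both lines, a gene that fell in shBruce MEFs and genes that did not pass, and a match in letters is a description, not a site.

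Other genes of the pathway were read from 7 lists of 112 genes, all of them in the count table and 105 of them past the filter. Starvation of shRenilla MEFs raised 9 and lowered 6 of the 105 (14.3% called, against 17% of all genes), and 90 did not pass, with a median log2 fold change of -0.08 beside -0.01 over all genes. In shBruce MEFs 12 rose and 14 fell (24.8% called, against 23% of all genes), and 79 did not pass, with a median of -0.01 beside 0.02. Of the 16 genes of the thioredoxin system and peroxiredoxins 0 passed in either line, and of the 14 regulators of NRF2 3 rose and 1 fell in shRenilla and 4 rose and 1 fell in shBruce MEFs. The list of glutathione synthesis and use, with 3 rising and 2 falling of 26 in shRenilla and 5 rising and 4 falling in shBruce MEFs, held the largest increases of the 7 lists.

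The named genes of that list include transporters and enzymes of glutathione use. Slc7a11 encodes the cystine-glutamate exchanger xCT, and its normalized counts were 77.5, 48.1 and 73.5 in shRenilla FM and 646, 646 and 445 in shRenilla Starv, and 46.7, 39.8 and 131 in shBruce FM and 325, 285 and 424 in shBruce Starv. All starved libraries lay above all fed ones, with log2 fold changes of 3.12 and 2.24 (adjusted p = 1.05e-04 and 9.29e-04 in edgeR's test). Slc3a2, the heavy chain that carries xCT and other amino acid exchangers to the membrane, rose from 4451 ± 207 to 10563 ± 1050.3 normalized counts (SD, n = 3) in shRenilla and from 4662 ± 71.3 to 11255 ± 2299 in shBruce MEFs. Chac1, a glutathione-degrading enzyme known as a target of the amino acid stress factor ATF4, had the largest increase of the lists, from 275 ± 9.24 to 3377 ± 316 in shRenilla and from 352 ± 46.2 to 3745 ± 184 in shBruce MEFs (log2 fold changes 3.62 and 3.41). Glrx, glutaredoxin, had the largest decrease in shRenilla MEFs, from 702 ± 9.28 to 292 ± 23.1 (-1.26), and fell from 665 ± 159 to 298 ± 7.27 in shBruce MEFs (-1.16).

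The promoter of Slc7a11, a gene often listed as an NRF2 target, is shown beside those above. The letters TGATGNAA are the core of the C/EBP-ATF response element (CARE) through which ATF4 acts. On either strand they occurred in 3.97% of all windows and in those of Slc7a11 and Chac1. They occurred in 0 of the 9 windows, which belong to 7 of the 10 genes, and Hmox1, Gclc and Gsr had no window to search. The 250 bases before the start of Slc7a11 (chr3:50443614-50443863, minus strand) hold 2 matches, in capitals, at -66 and -47, and also a match to the antioxidant response element core at -97, which is left in lower case.
Slc7a11: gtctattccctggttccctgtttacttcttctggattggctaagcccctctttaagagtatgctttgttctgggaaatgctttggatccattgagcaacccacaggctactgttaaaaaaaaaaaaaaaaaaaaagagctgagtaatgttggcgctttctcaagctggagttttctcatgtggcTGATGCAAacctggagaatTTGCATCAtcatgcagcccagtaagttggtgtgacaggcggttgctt
The windows of Slc3a2, Sqstm1 and Bach1, which also rose, held no match to these letters within the 300 bases searched. Slc7a11 and Chac1 were read with their large increases known. Nothing follows about a factor from a match or from its absence, and whether ATF4 or NRF2 acted on any of these genes was not tested.

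Among the regulators around KEAP1 and NRF2, most of which did not pass, Sqstm1, whose product p62 binds KEAP1, rose by 0.95 in shRenilla and 1.04 in shBruce MEFs on the log2 scale (adjusted p = 3.32e-04 and 1.32e-04). Bach1, the repressor at antioxidant response elements, had normalized counts of 578, 459 and 593 in shRenilla FM and 1511, 1430.5 and 1114 in shRenilla Starv, and 419, 339 and 432 in shBruce FM and 618, 660.5 and 1036 in shBruce Starv. It rose in both lines without overlap, with log2 fold changes of 1.31 (adjusted p = 6.74e-04) and 0.96 (0.00449). Nfe2l1, the NRF2 relative that controls proteasome genes, rose by 0.42 (adjusted p = 0.0407) and 0.44 (0.0242), and these calls held in 12 and 17 of 22 alternative fits, with values between 0.35 and 0.59. The former was lost without any 1 of the 6 shRenilla libraries or shBruce FM replicate 1 or 2 (adjusted p from 0.0562 to 0.138), and the latter without shBruce FM replicate 1 or 2 or Starv replicate 1 (0.0853, 0.0612 and 0.0516).

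Of the small MAF partners, Maff fell in both lines, from 656 ± 56.3 to 408 ± 43.8 normalized counts in shRenilla and from 677 ± 10.8 to 407 ± 61.0 in shBruce MEFs (log2 fold changes -0.69 and -0.73, adjusted p = 0.00379 and 0.00213). Mafg had log2 fold changes of 0.38 in shRenilla (adjusted p = 0.244) and 0.75 in shBruce MEFs (adjusted p = 0.0235), the latter with shBruce Starv replicate 1 at 2146 beside 1068 and 1103 in the other replicates. Without that library the value in shBruce MEFs was 0.34 and passed (adjusted p = 0.0316), and the call was lost without shBruce FM replicate 1 or 2 (adjusted p = 0.0686 and 0.0873). Mafk (-0.30 and -0.17, adjusted p = 0.184 and 0.450) and Cul3 (-0.04 and -0.19, adjusted p = 0.809 and 0.205) did not pass. Among the enzymes and receptors of xenobiotic metabolism, Ahr, the aryl hydrocarbon receptor, fell in both lines (log2 fold changes -1.07 and -1.40). In shRenilla MEFs Gpx8, a peroxidase of the endoplasmic reticulum, fell by 0.68, and Akr1b8, an aldo-keto reductase, fell by 0.54 (adjusted p = 0.0467), a call that was lost without any 1 of the 6 shRenilla libraries or shBruce FM replicate 1 (adjusted p from 0.0651 to 0.147). In shBruce MEFs Abcc1, an exporter of glutathione conjugates, fell by 0.88, Cyp1b1, a cytochrome P450, fell by 0.74, Selenow, a small selenoprotein, rose by 1.06 and Mgst1, at 7.20 ± 2.66 to 18.1 ± 6.86 normalized counts, by 1.37. Cyp1b1 was lost without shBruce FM replicate 3 (-0.46, adjusted p = 0.0803) or Starv replicate 1 (-0.65, adjusted p = 0.0507). Mgst1 was lost without shBruce FM replicate 1 (1.11, adjusted p = 0.0871) or Starv replicate 2 (1.04, adjusted p = 0.0864). Selenow was 0.63 without Starv replicate 1 and passed. Genes given for a single line were among its largest changes and need not be particular to it. Abcc1 also fell in shRenilla MEFs, from 4713, 4759 and 5233 to 3782, 3813 and 3248 normalized counts. Gpx8 also fell in shBruce MEFs, from 1883, 1699 and 1748 to 1215, 1499 and 1031. Mgst1 rose without overlap in shRenilla MEFs as well. Cyp1b1 and Selenow in shRenilla and Akr1b8 in shBruce MEFs overlapped.

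**Figure D4:**
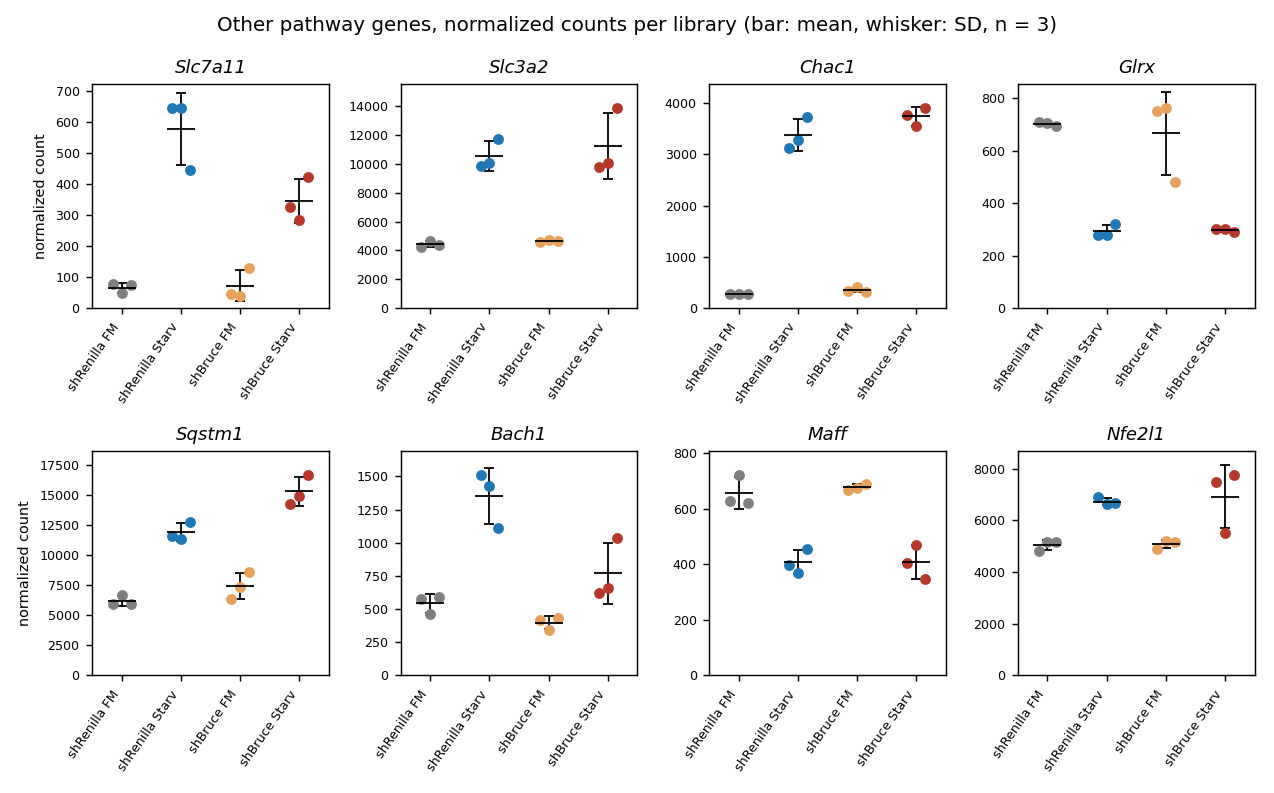
Normalized counts (y axis, from 0) of 8 other pathway genes in each library, with the mean (bar) and SD (whiskers, n = 3) of each group, shRenilla and shBruce. Slc7a11, Slc3a2, Chac1, Sqstm1 and Bach1 lie higher, and Glrx and Maff lower, in Starv in both lines.

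The comparison of the lines in FM asks how shBruce and shRenilla MEFs differed without starvation. With edgeR 0 of the 10 genes passed, as did 0% of all genes, and DESeq2's Wald test and limma-voom also called 0 of the 10, while over all genes DESeq2 called 26 higher and 50 lower and limma-voom 0. At an unadjusted p of 0.05, 3 of the 10 were higher in shBruce MEFs, Nqo1, Hmox1 and Srxn1, against 14.4% of all genes in either direction. Their libraries did not overlap, which held for 33.4% of all genes. The normalized counts were 204, 157 and 169 against 251, 273 and 360.0 for Nqo1, a log2 difference of 0.74 (0.29 to 1.18, unadjusted p = 0.00331, adjusted p = 0.256). The differences were 0.50 for Hmox1 (0.16 to 0.83, adjusted p = 0.296) and 0.46 for Srxn1 (0.16 to 0.76, adjusted p = 0.288), and with the length and GC trends removed the 3 values were 0.69, 0.32 and 0.37. In a fit of the FM libraries alone Nqo1 and Hmox1 passed (edgeR, adjusted p = 0.0478 and 0.0480), beside 5.11% of all genes. Both passed in 0 of the 12 fits with a library left out. The other 7 genes had log2 differences from -0.18 for Gclc to 0.19 for Keap1.

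After starvation 1 of the 10 genes passed between the lines, Keap1, against 23.9% of all genes (12.8% higher and 11.2% lower in shBruce). The log2 difference was 0.49 (0.17 to 0.81, adjusted p = 0.0330), from 1115 ± 33.5 normalized counts in shRenilla Starv to 1571 ± 379 in shBruce Starv. The libraries did not overlap, but replicate 1 of shBruce Starv, the shallowest library, stood at 2008 beside 1376 and 1329, and without it the difference was 0.26 (adjusted p = 0.0906). The call was also lost without shBruce Starv replicate 2 (0.58, adjusted p = 0.0528), shRenilla Starv replicate 1 or 2 (0.47 and 0.49, adjusted p = 0.125 for each), or shRenilla FM replicate 1 (0.49, adjusted p = 0.0504), with the length and GC trends removed (0.37, adjusted p = 0.0844) and in a fit of the Starv libraries alone (0.49, adjusted p = 0.132). Without shBruce Starv replicate 3, Keap1 passed and Nfe2l2 passed as lower (-0.36, adjusted p = 0.0441).

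Srxn1 was separate and higher in shBruce Starv, at 786 to 829.6 against 662 to 768 normalized counts, and Txnrd1 separate and lower, at 2897 to 4042 against 4259 to 4459. Their log2 differences of 0.21 (adjusted p = 0.282) and -0.27 (adjusted p = 0.124) did not pass, and 34.9% of all genes were separate in this comparison. Nqo1 and Hmox1, which stood apart in FM, overlapped in Starv, with log2 differences of 0.27 (adjusted p = 0.339) and 0.14 (adjusted p = 0.498). The interaction of line and medium, which tests whether the starvation responses differ, passed for 0 of the 10 genes with edgeR and for 0% of all genes, and DESeq2 and limma-voom also called 0 genes. At an unadjusted p of 0.05 it was 0 of the 10 against 3.9% of all genes, and the smallest adjusted p of the 10 was 0.806.

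Among the 105 other pathway genes, 22 were higher and 10 lower in shBruce Starv than in shRenilla Starv (30.5% called, against 23.9% of all genes), and 73 did not pass. The median log2 difference was 0.20 beside -0.0012 over all genes, and it was 0.21 beside 0.01 in FM, where 0 of the 105 passed. The higher genes included Glrx3, Sod1, Selenow, Mgst3 and Akr7a5 with log2 differences of 1.47, 1.22, 1.04, 1.03 and 0.96, and the lower ones Bach1, Nadk2, Cyp1b1, Selenop and Tfrc with -0.80, -0.76, -0.75, -0.74 and -0.58. Sod1, the cytosolic superoxide dismutase, had normalized counts of 2325, 2419 and 2966 in shRenilla Starv and 9649, 5272 and 3095 in shBruce Starv. Its order in shBruce Starv, replicate 1 highest and replicate 3 lowest, was also that of Glrx3 (1978, 919 and 522) and Selenow (3191, 1744 and 1436). The longest transcripts of the 22 higher genes had a median length of 1558 bases and those of the 10 lower genes of 5009, beside 3413 over all genes tested and 1553 to 5589 for the 10 members. With the length and GC trends removed, 6 of the 22 and 1 of the 10 still passed, as did 4 of the other 73. That fit called 8.27% of all genes. Of the 10 genes named above, those that still passed were Glrx3, Sod1 and Selenop. The trend was removed by the longest annotated transcript, of 3440 bases for Glrx3 and 3970 for Sod1, beside 736 for Selenow. Which transcripts these MEFs expressed was not tested. A length trend tied to shorter transcripts of Glrx3 or Sod1 would remain in their values. In that fit Selenow, Akr7a5, Bach1 and Tfrc had differences of 0.35, 0.28, -0.45 and -0.16. Without shBruce Starv replicate 1 the differences of Glrx3, Sod1, Selenow and Akr7a5 were 0.80, 0.69, 0.61 and 0.53, and of the 10 only Glrx3, Selenow and Nadk2 passed (adjusted p = 0.0487, 0.0480 and 0.0480). Without shRenilla Starv replicate 1 or 2, or without shBruce Starv replicate 2, 0 of the 105 genes passed, beside 0%, 0% and 0.123% of all genes. Without shBruce Starv replicate 1 6 did, beside 4.75% of all genes. Without shBruce Starv replicate 3 63 of the 105 passed, in a fit that called 47.1% of all genes. Of the genes named whatever their values, Sqstm1 was higher and Slc7a11 lower in shBruce Starv without overlap. Their log2 differences were 0.36 and -0.75 (adjusted p = 0.0560 and 0.109 in edgeR's test). The former passed in 4 and the latter in 2 of 22 alternative fits. Mafg, Maff, Mafk and Nfe2l1 had differences of 0.37, -0.00, 0.09 and 0.04, and their libraries overlapped. In FM the 8 genes ranged from -0.45 for Bach1 (adjusted p = 0.333), whose libraries did not overlap, to 0.27 for Sqstm1 (adjusted p = 0.356). Cul3 in Starv had a difference of -0.34 (adjusted p = 0.0386), which passed in 9 of 22 alternative fits and was lost without shRenilla FM replicate 1, 2 or 3, shRenilla Starv replicate 1 or 2, shBruce FM replicate 2 or shBruce Starv replicate 1 or 2 (-0.34 to -0.29, adjusted p from 0.0509 to 0.159), and with the length and GC trends removed its difference was 0.094, higher in shBruce MEFs (adjusted p = 0.533).

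Across the 12 libraries, the log2 normalized counts of Txnrd1 and Gsr rose and fell together (Pearson r = 0.82), as did those of Nqo1 and Srxn1 (0.81) and of Keap1 and Osgin1 (0.73). The lowest values were those of Hmox1 with Txnrd1 (-0.67), Gclc with Gsr (-0.65), Nqo1 with Gclc (-0.65) and Nfe2l2 with Keap1 (-0.57). Nfe2l2 had an r of 0.10 with Nqo1, 0.28 with Srxn1 and -0.06 with Hmox1, and its highest value was 0.62 with Txnrd1. These values describe 12 libraries that share 4 groups and their depth and length differences, and the 45 pairs were not tested.

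**Figure D5:**
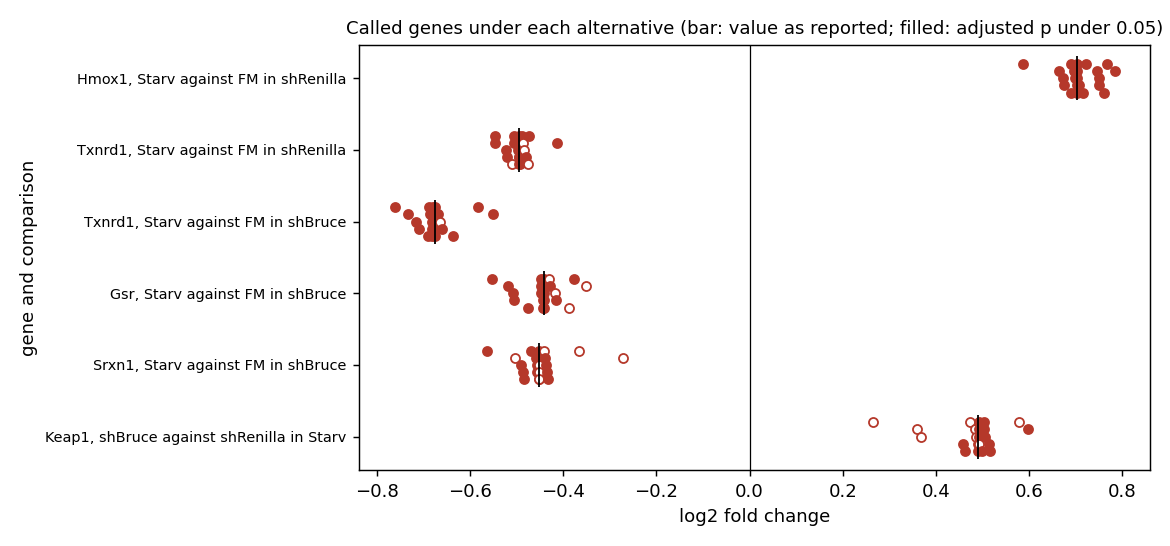
Log2 fold change (x axis) of the 6 called results under each of the 22 alternative fits, with a black bar for the value as reported and filled points where the adjusted p stayed under 0.05. Hmox1 in shRenilla MEFs passed in 22 of 22 and Keap1 between the lines in 13 of 22, and all points keep their side of 0.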

How the data were processed

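RNA-Seq counts of 12 libraries (4 groups, 3 replicates each) were analysed. The authors isolated total RNA, selected its poly(A) fraction, read 50 bases from 1 end of each fragment, discarded rRNA reads, aligned what remained with STAR 2.4.0d (mm10) and counted reads per gene with HTSeq 0.5.4p3. The values are the deposited raw counts, without normalization. The gene annotation, strand setting and overlap mode are not given in the sources used here. Among the deposited symbols, 27 had become dates (0.296% of counts).

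Counts were fitted over all 12 libraries in edgeR 4.0.16 (R 4.3.3), using TMM factors, filterByExpr and a mean for each group. The two-sided quasi-likelihood test was used, p-values were adjusted by Benjamini-Hochberg across the 12154 genes that passed the filter, and the threshold was 0.05. Confidence intervals are at 95%. Normalized counts are counts scaled by TMM-corrected library sizes to the geometric mean of these sizes. Levels per kb used the longest GENCODE M21 transcript (GRCm38). Single genes were also compared with an exact permutation test in scipy 1.17.1. Total counts of 7717265 to 18510540 per library set the counting error, which is part of the SDs and standard errors given. The fit was also run on simulated counts with the same setting of spread for all genes and libraries and no length trend. That run therefore does not measure the error of the fit in these data.

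The 10 genes, the 7 lists and the tests were chosen with earlier results of these data known. The other genes named are, per comparison, up to 5 increases and 5 decreases of the lists past the threshold, and Bach1, Mafg, Maff, Mafk, Cul3, Sqstm1, Nfe2l1 and Slc7a11 whatever their values. Alternatives were DESeq2 size factors, upper-quartile normalization, DESeq2 1.42.0 with its Wald test, limma-voom (limma 3.58.1), unfiltered genes, genes with at least 10 counts in all libraries, fits of the compared groups alone, a replicate block, removal of length and GC trends (splines with 4 degrees of freedom, over 99.2% of the genes tested), both together, and each library left out in turn. 0 columns of per-sample values were left unused.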

Additional observations from a re-analysis of the deposited data

How the results depend on the processing

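Over the alternatives, 1047 of the 1090 values of single genes among the 10 stayed on their side of the threshold, 17 passed newly, 26 no longer passed, and 0 called values changed sign. The count of the 10 genes called was 2 for starvation of shRenilla MEFs and 4 in a fit of only the groups compared, which called 41.9% of all genes. With a library left out it was 1 to 3, beside 9.52 to 26.4% of all genes. For starvation of shBruce MEFs it was 3, and 0 in a fit of only the groups compared (8.11% of all genes). It was 1 with upper-quartile normalization (24.1% of all genes), which moved the median log2 fold change of all genes from 0.02 to 0.11. With a library left out it was 1 to 4, beside 15.2 to 32.9% of all genes. Between the lines in FM it was 0, 2 in a fit of only the groups compared (5.11% of all genes), and 0 with each library left out (0 to 0.263%). Between the lines in Starv it was 1, and 0 in a fit of only the groups compared (0% of all genes). It was 0 with the length and GC trends removed (8.27% of all genes) and 0 to 2 with a library left out (0 to 47.1%). For the interaction it was 0 throughout. The replicate numbers did not pair the libraries: deviations from the group means of same-numbered libraries correlated between -0.46 and 0.35, over 0.1 in 5 of 18 pairs. With the replicate block, the counts were 2, 3, 0, 0 and 0 in the same order, beside 14.6, 20.2, 0, 15.9 and 0% of all genes. Keap1 between the lines in Starv then stood at 0.48 (adjusted p = 0.0567 in edgeR's test). With the block and the trends removed together, the count between the lines in Starv was 0, beside 0.00823% of all genes. The causes were not tested. Of the other genes named, Cul3 between the lines in Starv changed sign with the length and GC trends removed (0.094, and 0.091 with the replicate block as well). Over all genes, the calls between the lines in Starv went from 1550 higher and 1357 lower to 0 in a fit of only the groups compared and without shRenilla Starv replicate 1 or 2, and to 5 and 10 without shBruce Starv replicate 2. The genes of the 7 lists called ranged from 10 to 40 around 15 for starvation of shRenilla MEFs, 12 to 38 around 26 for shBruce MEFs, 0 to 12 from 0 between the lines in FM and 0 to 63 around 32 in Starv. In the same order, the share of all genes called ranged from 9.52 to 41.9%, 8.11 to 32.9%, 0 to 5.11% and 0 to 47.1%. Osgin1 had the fewest counts of the 10, with a group mean of 70.9 normalized counts in shRenilla Starv, and shBruce Starv replicate 1 the lowest depth, 7717265 counts.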
